A study of Rattus norvegicus with 4 samples.

Results

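Protein phosphatase genes were followed in the ischaemic cortex of rats that had received estradiol or placebo. The genes were chosen by symbol. They are those whose symbols begin with Ppp and a digit (subunits and regulators of serine/threonine phosphatases), Ppm1 (the metal-dependent serine/threonine phosphatases), Ptpn and a digit (nonreceptor tyrosine phosphatases) or Ptpr and a letter (receptor tyrosine phosphatases). Ppp1r1b and Ptprc were left out by the rule, as were probe sets annotated to more than 1 gene. This gave 59 genes of the 4736 that the array names by a single symbol, 31 on the serine/threonine side and 28 tyrosine phosphatases, covered by 96 probe sets. Where a gene had several probe sets, the one of highest mean intensity over the 4 arrays stood for it.

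All animals were ovariectomised female rats whose middle cerebral artery was closed from inside the vessel for 2 h and then reopened. One group had received 17beta-estradiol as replacement and the other placebo. Strain and age are not given in the sources used here. Each group had 2 Affymetrix GeneChip arrays (rat genome U34 set) of cortex on the stroke side, and each array carried RNA pooled from 3 animals, so that the spread between 2 pools is that between group averages of 3 and not between animals. Pools carry the number in their title, 1 or 2, after the treatment. The titles carry a code with the number 6, and the design text names tissue taken at 6 and 24 h, but no label states the time of these arrays in words. No array of uninjured cortex was analysed here, so the values do not show how ischaemia itself moved these genes.

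Protein phosphatases remove the phosphate groups that kinases place on proteins. The serine/threonine enzymes are mostly assembled from a few catalytic subunits and many regulatory subunits, which decide where the enzyme sits and which substrates it meets. In neurons, calcineurin (the calcium-dependent phosphatase) and protein phosphatase 1 (PP1) act at synapses, where they oppose kinases that strengthen transmission, and protein phosphatase 2A (PP2A) is the main enzyme that dephosphorylates the microtubule protein tau. Tyrosine phosphatases are mostly single proteins with a catalytic cysteine. The genes here were chosen by symbol, and whether each encodes an active enzyme was not examined. The nonreceptor type lies inside the cell, and the receptor type spans the membrane. Many of the receptor type, but not all, have adhesion-like outer domains that take part in axon guidance and cell contact.

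The 4 arrays had median intensities between 55.0 and 57.8, and the brightest control for a foreign transcript read 30.1 to 37.8, a level that is used below as background and that 58.9 to 64.6% of probe sets exceeded. Of the 6 neuron markers measured, 5 were above background on every array and Camk2a on all but placebo 1 (25.3), with a summed intensity of 5626 and 5895 under estradiol and 4771 and 6967 under placebo. The cortical peptide gene Cck stood at 1279, 1340, 1855 and 2007, in the order estradiol 1 and 2, placebo 1 and 2, which is the order of all 4-value lists here. The 7 measured markers of striatum, the region beneath the cortex, summed to 1500 and 1675 under estradiol and to 662.5 and 866.5 with placebo. The tissue is nevertheless labelled cortex. Of these markers only Drd2 lay at background on every array, and its groups overlapped, as did those of Adora2a and Pde1b. Choroid plexus and meninges markers (5 genes) ranged in sum from 475 in placebo 2 and 716 in estradiol 1 to 5068 in estradiol 2 and 9105 in placebo 1. The range came mostly from Ttr (165, 4312, 8034 and 74.3), and without it the sums were 551, 756, 1071 and 401. The 7 microglia and leukocyte markers summed to 520 and 508 under estradiol and to 801.5 and 557 with placebo, with Itgam and Csf1r at background throughout. In bulk tissue, fewer cells of a type and less RNA per cell cannot be told apart.

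No phosphatase gene passed the adjusted threshold of 0.05. Of the 59 genes, 44 had a mean intensity of at least 37.5 and were tested with limma within a fit over 5244 probe sets. That fit called 0 probe sets (0.0%) at an adjusted p below 0.05, 161 at an unadjusted p below 0.05. The smallest adjusted p among the 44 was 0.998 in limma. With 1 probe set per gene, 1 phosphatase gene, Ptpn23, lay at an unadjusted p below 0.05, beside 2.58% of 3181 tested genes. Fold changes below are log2(intensity + 16) with estradiol minus that with placebo, SE is the standard error of the limma fit, and SD is that over the 2 pools of a group. The smallest exact permutation p that 2 pools against 2 allow for a single gene is 0.333.

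Values above 0 were found for 28 of the 44 tested genes (63.6%), beside 52.4% of all tested genes. Their median log2 fold change was 0.08, beside 0.01 over all tested genes, and the values ran from -0.45 to 1.02. The groups did not overlap, with both estradiol pools above or below both placebo pools, for 18 of the 44 (40.9%), beside 30.1% of all tested genes. In 11 of them the estradiol pools were the higher ones, as in 16.1% of all tested genes, and in 7 the lower ones, as in 14.0%. These shares describe the genes that passed the intensity filter, not all 59.

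**Figure D1:**
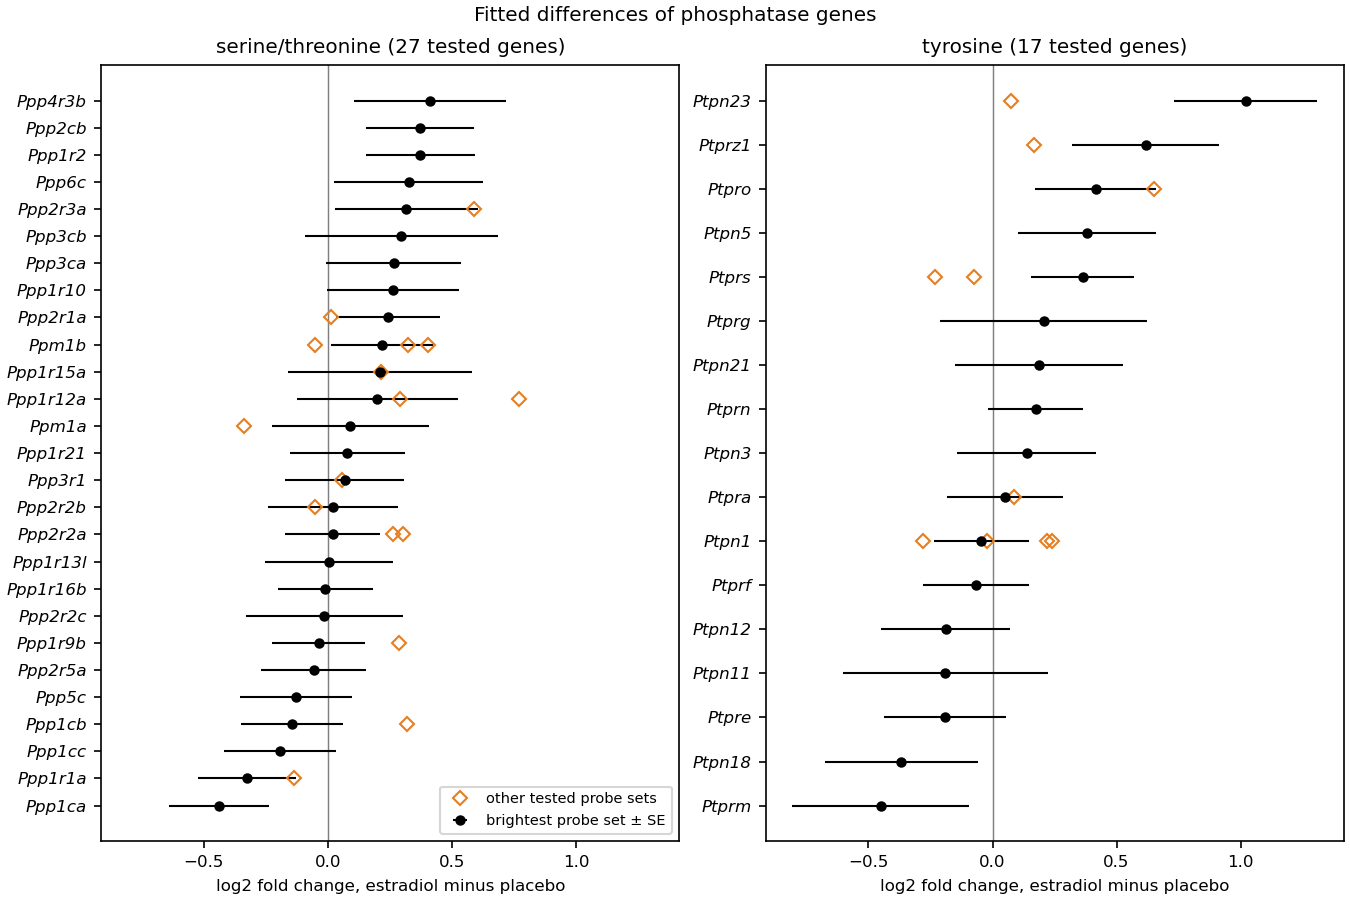
Fitted log2 fold change (estradiol minus placebo, log2(intensity + 16)) of each tested phosphatase gene, with serine/threonine genes on the left and tyrosine phosphatases on the right. Black points are the probe set of highest mean with its SE, and open diamonds are other tested probe sets of the same gene. Ptpn23 stands at 1.02 while its other probe set stands at 0.07.

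The serine/threonine catalytic subunits did not move one way. Of 8 measured, all 8 were tested, 4 lay above 0 and 4 below, and none passed. The 3 catalytic subunits of PP1, the most widespread serine/threonine phosphatase, all had values below 0 in their brightest probe sets. Ppp1ca, the alpha form, stood at 538 and 466 under estradiol against 646 and 723 under placebo. The groups did not overlap, and the log2 fold change was -0.44 ± 0.20 (SE). Means were 502 ± 51.2 (SD, n = 2) and 685 ± 54.5 (SD, n = 2), and the value lay between -0.54 and -0.34 with each array left out.

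Ppp1cb, the beta form, stood at 629 and 666 against 639 and 804, a log2 fold change of -0.14 ± 0.21 (SE). Ppp1cc, the gamma form, stood at 395 and 417 against 398.5 and 545, a value of -0.19 ± 0.22 (SE). For both genes, placebo 2 was the bright array and placebo 1 lay between the estradiol pools, and without placebo 2 the values were 0.02 and 0.03. The dimmer probe set of Ppp1cb went the other way, with 159 and 146 against 129 and 110 and a log2 fold change of 0.32. The probe sets used for Ppp1ca and Ppp1cc are of the kind whose probes can match several related transcripts, so the 3 forms may not be fully separated. Those used below for Ppp2cb, Ppp3ca, Ppp3r1, Ptpra, Ptpre and Ptprn, among others, are of this kind too, and the same limit holds for them.

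Ppp2cb, a catalytic subunit of PP2A, stood at 306 and 259 under estradiol against 200 and 229 under placebo. The groups did not overlap, with 282 ± 33.4 (SD, n = 2) against 214 ± 20.6 (SD, n = 2) and a log2 fold change of 0.37 ± 0.22 (SE), between 0.26 and 0.49 with each array left out. Ppp6c, the catalytic subunit of a related enzyme, had 65.0 and 71.9 against 61.6 and 42.4, again without overlap, and 0.33 ± 0.30 (SE). Without placebo 2 its value was 0.12. Ppp5c, an enzyme that binds the chaperone Hsp90, was close between groups, at 104 and 102 against 112 and 116, with -0.13 ± 0.23 (SE).

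Calcineurin consists of a catalytic A subunit and a calcium-binding B subunit. Ppp3ca, the A subunit that predominates in brain, stood at 889 and 879 under estradiol against 557 and 962 under placebo. The placebo pools lay on both sides of the estradiol pools, and the log2 fold change of 0.27 ± 0.27 (SE) was -0.12 without placebo 1 and 0.65 without placebo 2. Its partner Ppp3r1, the B subunit of brain, showed the same placement, at 287 and 271 against 221 and 319, with 0.07 ± 0.24 (SE), or -0.18 without placebo 1. The second probe set of Ppp3r1 stood at 159.5 and 174 against 106 and 236.5. In all 3 probe sets placebo 1 was the lowest array and placebo 2 the highest, the same arrays in which the neuron marker sum was lowest and highest. What part the neuron markers' difference has in this was not tested.

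The other A subunit gene, Ppp3cb, stood at 53.8 and 141 under estradiol against 67.6 and 70.8 under placebo. Only estradiol 2 was high, and the estradiol pools lay on both sides of the placebo pools. Its log2 fold change of 0.30 ± 0.39 (SE) became 0.88 without estradiol 1 and -0.29 without estradiol 2. Ppp3r2, the B subunit known from testis, read 5.8, 5.1, 33.4 and 7.9, which is background throughout, and could not be tested.

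**Figure D2:**
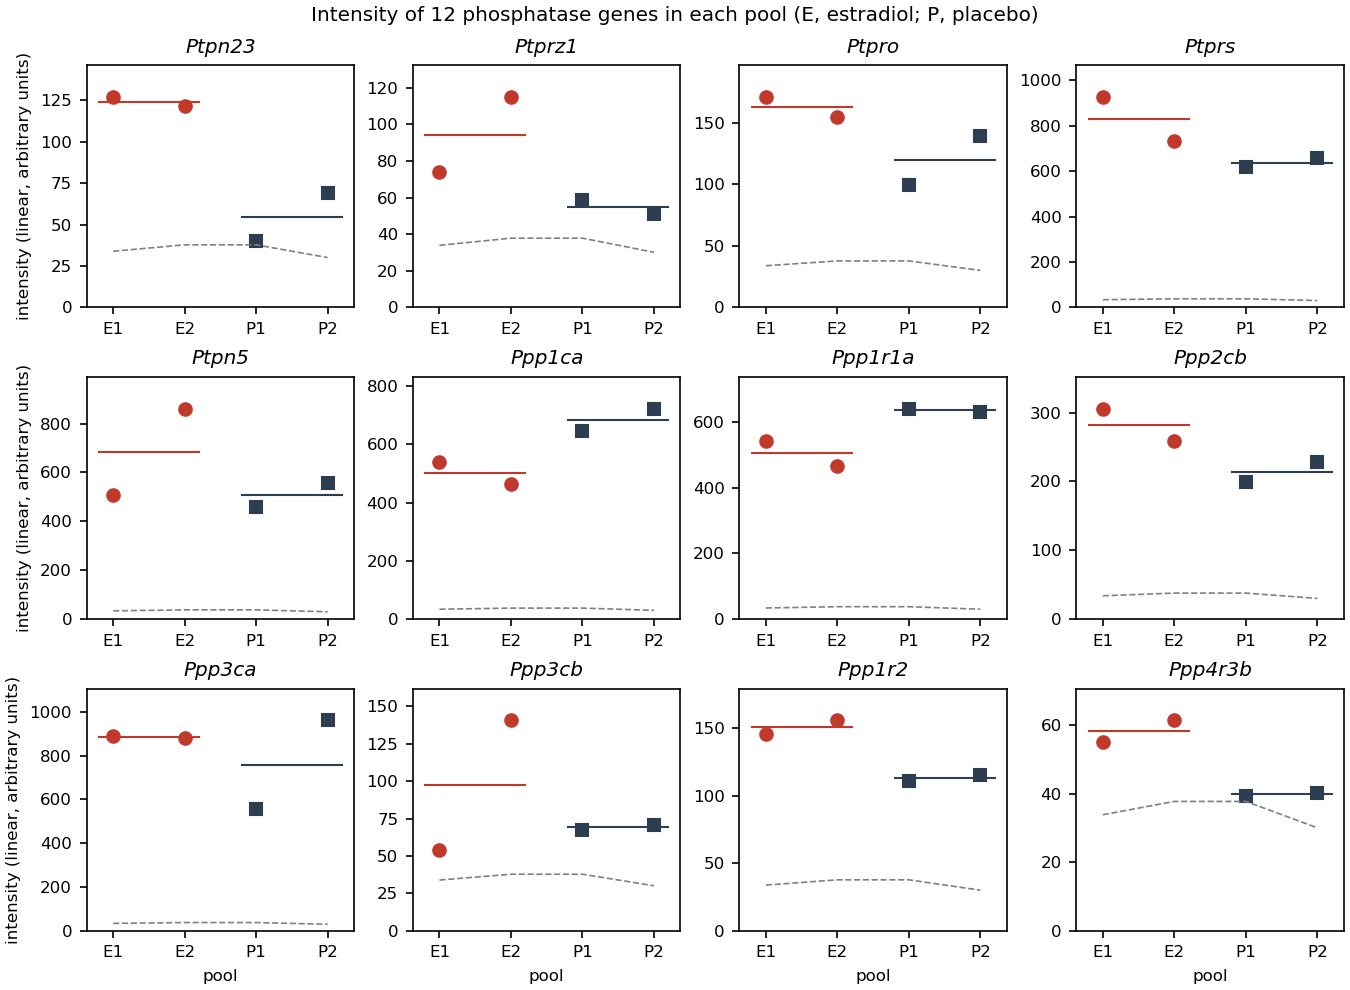
Linear intensity (arbitrary units) of 12 phosphatase genes in the pools estradiol 1 and 2 (E1, E2, circles) and placebo 1 and 2 (P1, P2, squares), with horizontal lines at group means and a dashed line at the brightest foreign control of each array. The genes were chosen after their values were seen. Ptpn23 is near the dashed line in placebo 1, at 40.1, and Ppp3ca in placebo 1, at 557, lies below the other pools.

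PP2A is completed by a scaffold and 1 of several regulatory B subunits. Ppp2r1a, the scaffold, stood at 1307.5 and 1460 under estradiol against 1027 and 1324 under placebo, giving a log2 fold change of 0.24 ± 0.21 (SE). Its groups overlapped, placebo 1 was the low array, and without it the value was 0.06. Of the 5 B subunit genes, 3 lay above 0 and 2 below, with values from -0.06 to 0.32. Ppp2r2a was the most even of them in its brightest probe set, at 510, 505, 493 and 508. Its other tested probe sets were less even, with overlapping groups. They stood at 180 and 220 against 130 and 193, with 0.30, and at 65.8 and 89.7 against 70.2 and 53.8, with 0.26. The brain forms Ppp2r2b and Ppp2r2c had placebo 1 lowest and placebo 2 highest in their brightest probe sets, with 175 and 281 for Ppp2r2b and 115 and 230 for Ppp2r2c in those arrays. The other tested probe set of Ppp2r2b did not share this placement, at 126 and 89.0 against 126 and 96.7, with -0.05. Ppp2r3a alone did not overlap, at 65.8 and 61.5 against 48.4 and 47.5, a value of 0.32 ± 0.29 (SE). Its other tested probe set overlapped, at 46.8 and 77.8 against 16.8 and 63.2.

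The PP1 regulators numbered 12, of which 9 were tested, 6 with values above 0 and 3 below. The 2 that did not overlap in their brightest probe sets were both inhibitor genes, and they went opposite ways. Ppp1r1a encodes inhibitor-1, which blocks PP1 once protein kinase A has phosphorylated it. It stood at 544 and 467 under estradiol against 641 and 630 under placebo, giving a log2 fold change of -0.33 ± 0.20 (SE). Its dimmer probe set also did not overlap, at 267 and 273 against 283 and 314, with -0.13. Ppp1r2, which encodes inhibitor-2, stood at 146 and 156 against 111 and 115, or 151 ± 7.21 (SD, n = 2) against 113 ± 3.18 (SD, n = 2), a log2 fold change of 0.37 ± 0.22 (SE). With each array left out, the value lay between -0.43 and -0.22 for Ppp1r1a and between 0.33 and 0.42 for Ppp1r2.

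Ppp1r9b, which encodes spinophilin, the protein that holds PP1 at dendritic spines, was close between groups, at 1112 and 1120 against 1201 and 1092. Its log2 fold change was -0.04 ± 0.19 (SE), a sign that turned with quantile normalisation (0.0026), without placebo 1 (0.03) and with the mean of its tested probe sets (0.12). Its dimmer probe set did not overlap and went the other way, at 94.3 and 68.6 against 62.1 and 64.4, with 0.29. Ppp1r15a encodes GADD34, a stress-induced subunit that directs PP1 to a phosphorylated translation initiation factor. It read 248 in both estradiol pools but 332 and 134 in those of placebo, so the spread between placebo pools exceeded the group difference of 0.21 ± 0.37 (SE). Its value was 0.82 without placebo 1 and -0.40 without placebo 2. The remaining tested PP1 regulators were Ppp1r10 (a nuclear targeting subunit) with 0.26, Ppp1r12a (the myosin-targeting subunit) with 0.20, Ppp1r21 with 0.08, Ppp1r13l with 0.0047 and Ppp1r16b with -0.01. Their groups overlapped in the brightest probe sets. A dimmer probe set of Ppp1r12a stood at 57.2 and 75.1 against 28.8 and 35.2, without overlap. Its log2 fold change of 0.77 had an unadjusted p of 0.0473 and an adjusted p of 0.998 in limma. That size was not shared by the other 2, at 0.29 and 0.20. The probe set with 0.29 did not overlap either, at 72.6 and 53.6 against 47.3 and 49.1.

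Promoter sequences were searched because estradiol acts through receptors that bind a palindromic element. RefSeq windows of 250 bases before to 50 after the annotated start (GRCr8) were found for 52 of the 59 genes. The perfect palindrome of the estrogen response element was in 0 of the 52 windows and in 7 of 27457 (0.0255%) over all gene symbols. One arm of it with its flanking base, AGGTCA on either strand, was in 6 of 52 (11.5%), beside 15.7% of all. A palindrome can hold this arm, and no window here held the palindrome. The cAMP response element TGACGTCA, a palindrome, was in 3 of 52 (5.77%), beside 1.91% of all. The 3 windows with it are shown, with 2 of those with the single arm, because Ppp1r15a and Ptprs are among the genes described in full here. Capitals mark the match, and all letters run 5′ to 3′ on the gene's strand, which is the minus strand of each chromosome here except for Ptpn1.
Ppp1r15a, chr1:105139640-105139677, cAMP element: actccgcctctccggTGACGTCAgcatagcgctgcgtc
Ptprs, chr9:1394116-1394153, cAMP element: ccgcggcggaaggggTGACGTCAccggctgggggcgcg
Ptpru, chr5:149308859-149308896, cAMP element: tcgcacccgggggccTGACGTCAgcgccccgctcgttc
Ppp1r15a, chr1:105139735-105139770, single arm, reverse orientation: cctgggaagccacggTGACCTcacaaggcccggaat
Ptpn1, chr3:177057509-177057544, single arm: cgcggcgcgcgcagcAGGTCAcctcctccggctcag
The cAMP elements begin at positions -66, -47 and -48 from the start in Ppp1r15a, Ptprs and Ptpru. A match of letters is not a bound site. Ptpn23 and Ppp1ca had no match to any of the 3 motifs in this window.

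Regulatory and metal-dependent genes outside PP1 and PP2A were few. Ppp4r3b, a regulatory subunit of protein phosphatase 4, stood at 55.2 and 61.5 under estradiol against 39.5 and 40.2 under placebo, without overlap. Its log2 fold change of 0.41 ± 0.31 (SE) was the highest of the serine/threonine side, on placebo values just above background. Ppm1b, at 323.5 and 297 against 255 and 274, did not overlap either, with 0.22 ± 0.20 (SE), and its 3 dimmer probe sets gave 0.40, 0.32 and -0.05. Ppm1a stood at 81.7 and 86.2 against 55.8 and 107, with 0.09 ± 0.32 (SE).

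The nonreceptor tyrosine phosphatases comprised 11 genes, 8 of them tested, with 4 above 0 and 4 below. Ptpn23 encodes a large protein of endosomal sorting. Its brightest probe set stood at 127 and 121 under estradiol against 40.1 and 69.2 under placebo. The groups did not overlap, with means of 124 ± 4.10 (SD, n = 2) and 54.6 ± 20.6 (SD, n = 2), and placebo 1 was within a few units of its background of 37.8. The log2 fold change was 1.02 ± 0.29 (SE), a fold of 2.03, with an unadjusted p of 0.00834 and an adjusted p of 0.998 in limma, and it lay between 0.72 and 1.32 with each array left out. Its other probe set, of nearly the same mean intensity, stood at 85.1 and 79.1 against 80.3 and 74.2, with overlapping groups and a value of 0.07.

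Ptpn5 encodes STEP, the phosphatase enriched in striatum that acts on glutamate receptors and on the kinases Fyn and ERK. It stood at 508 and 862 under estradiol against 458 and 557 under placebo. Only estradiol 2 was high, the groups overlapped, and the log2 fold change of 0.38 ± 0.28 (SE) was 0.01 without estradiol 2. Of the 7 striatal markers, 5 were also highest in estradiol 2, by a wide margin for Rgs9 (24.3, 146, 16.2 and 21.0) and Drd1 (74.1, 134, 48.8 and 51.4) and a narrow one for Tac1 (381, 408, 108 and 116). Among these 5, the groups overlapped for Adora2a (118, 168, 164 and 128) and Pde1b (245, 280, 137 and 254.5). Penk was highest in estradiol 1 (641 and 526 against 174 and 279), Drd2 was at background, and the list's sums in the estradiol pools, 1500 and 1675, differed little. The part of striatal tissue in this value was not tested.

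Ptpn1, which encodes PTP1B, the phosphatase that acts on the insulin and leptin receptors, was nearly level in its brightest probe set, at 562.5 and 532 against 566.5 and 563, with -0.04 ± 0.19 (SE). Its 4 other probe sets gave 0.24, 0.22, -0.02 and -0.28. Ptpn18 stood at 43.0 and 73.9 against 74.9 and 81.1, without overlap, and its -0.37 ± 0.31 (SE) was -0.06 without estradiol 1. Ptpn11, which encodes SHP2, a phosphatase of growth factor signalling, stood at 62.5 and 23.0 against 47.1 in both placebo pools, and estradiol 2 lay at background. Its log2 fold change of -0.19 ± 0.41 (SE) was 0.32 without estradiol 2, and its 4 dimmer probe sets were not tested. The other tested genes, with overlapping groups, were Ptpn21 with 0.19, Ptpn3 with 0.14 and Ptpn12 with -0.19.

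Among receptor tyrosine phosphatases, 9 of 17 genes were tested, with 6 above 0 and 3 below. Ptprz1, a glial receptor for the growth factor pleiotrophin, stood at 73.7 and 115 under estradiol against 58.6 and 50.9 under placebo. The groups did not overlap, with 94.3 ± 29.2 (SD, n = 2) against 54.8 ± 5.44 (SD, n = 2) and a log2 fold change of 0.62 ± 0.30 (SE). It was 0.34 without estradiol 2 and 0.89 without estradiol 1. The other tested probe set of Ptprz1, at 38.2 and 49.9 against 33.5 and 41.3, overlapped and gave 0.17. Ptn, the gene of its ligand pleiotrophin, stood at 499 and 265 against 384 and 427, with -0.15 ± 0.30 (SE).

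Ptpro, a receptor phosphatase of axons and of kidney podocytes, had the same placement of pools in both tested probe sets. Its brightest stood at 171 and 155 under estradiol against 99.8 and 139.5 under placebo, a log2 fold change of 0.42 ± 0.24 (SE), between 0.20 and 0.63 with each array left out. The other tested one stood at 78.6 and 75.2 against 38.1 and 48.6, with 0.65, and neither overlapped. Another, at background on every array, was not tested. Ptprs, a receptor for chondroitin sulfate proteoglycans of the matrix, stood at 928 and 731 against 617 and 658 in its brightest probe set. The groups did not overlap there, at 829 ± 139 (SD, n = 2) against 637 ± 29.1 (SD, n = 2) and 0.36 ± 0.21 (SE). The 2 other tested probe sets of Ptprs gave -0.07 (418 and 524 against 422 and 577) and -0.23 (88.6 and 81.1 against 113 and 92.9), so no single direction can be given for the gene.

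Ptprn, a protein of dense-core secretory vesicles, stood at 1281 and 1478 against 1181 and 1255, without overlap, with 0.17 ± 0.19 (SE). Ptprm, a homophilic adhesion receptor, stood at 42.5 and 27.6 against 44.3 and 63.0, without overlap and with estradiol 2 at background. Its -0.45 ± 0.36 (SE) was the lowest value of all tested phosphatase genes. Ptpre stood at 80.1 and 79.8 against 86.5 and 101, without overlap, with -0.19 ± 0.25 (SE). Ptprg had 0.21, Ptpra 0.05 and Ptprf, which encodes LAR, -0.07, all with overlapping groups.

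The 15 genes below the filter were 4 PP1 or calcineurin regulators and 11 tyrosine phosphatases, with intensities from 1.8 to 54.5. All 4 arrays were at background for 11 of them, Ppp1r36, Ppp1r3b, Ppp1r9a, Ppp3r2, Ptprd, Ptprh, Ptprn2, Ptprq, Ptprr, Ptpru and Ptprv. Ptpn2, Ptpn7 and Ptprj were above background on 1 array each. For Ptpn7 that array was placebo 2. Its groups did not overlap, at 17.6 and 15.1 under estradiol against 28.4 and 41.6 under placebo. Ptpn6, which encodes SHP1, a phosphatase of blood-derived cells and microglia, stood at 54.5 and 46.9 with estradiol. It lay at background with placebo, at 26.2 and 15.0. Taking the brightest foreign control of each placebo array as the floor, its group mean on the log scale was at least 1.50-fold higher in this probe set. This bound holds for the group means and not for single pools. The other probe set of Ptpn6 was at background on every array. Ptpn6 was just outside the filter, with a mean of 35.6, next to Ptpn2 with 31.9, and Ptprg and Ptprm were just inside, with 41.7 and 44.3.

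**Figure D3:**
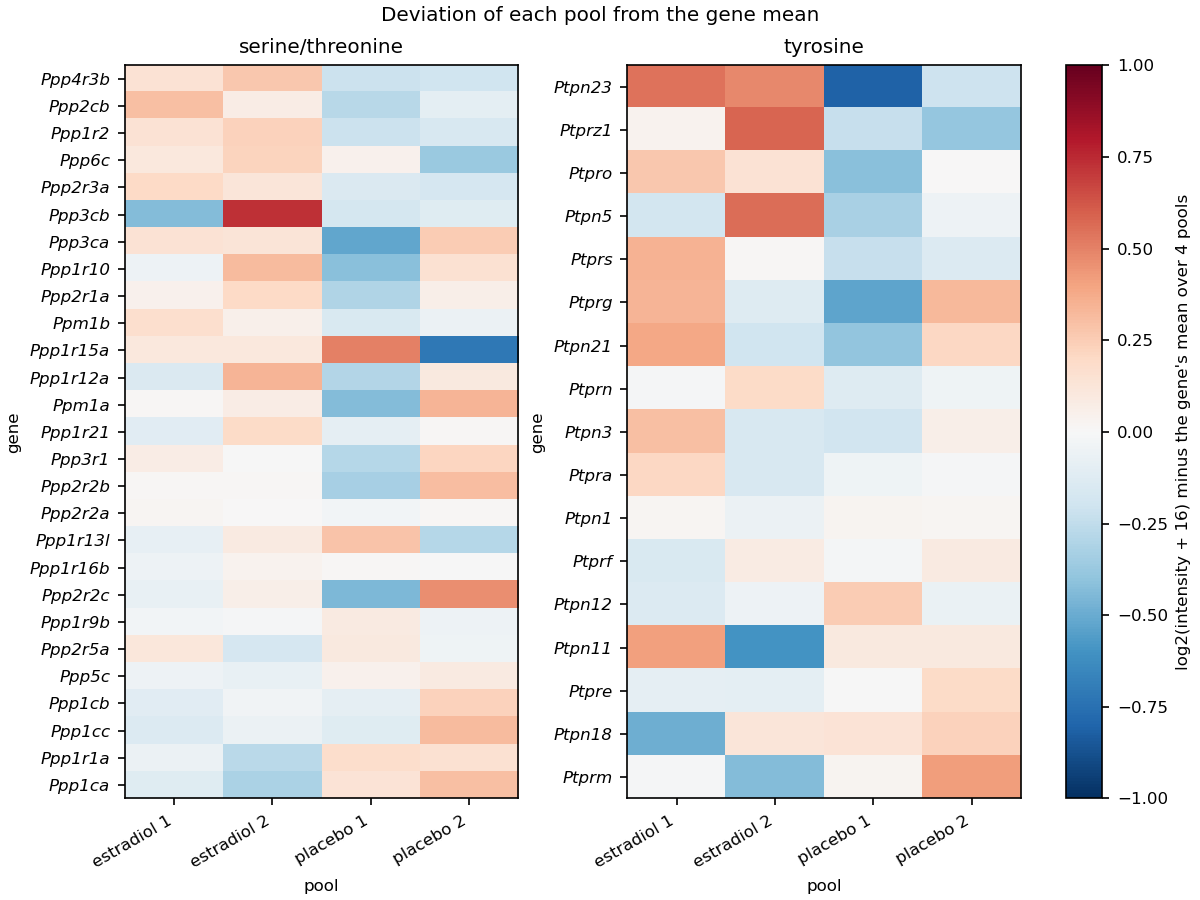
Colour shows log2(intensity + 16) of each tested phosphatase gene in each pool minus the gene's mean over the 4 pools, with rows ordered by log2 fold change within each class. The column of placebo 1 holds the lowest of the 4 values for 21 of the 44 genes.

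The pools of 1 group often differed more than the groups did. Placebo 1 was the lowest array for 21 of the 44 tested genes (47.7%), beside 30.7% of all tested genes, with 13 of 27 on the serine/threonine side and 8 of 17 tyrosine phosphatases. The median deviation of the serine/threonine genes from their own means was 0.01, 0.07, -0.15 and 0.01 on the log2 scale, and that of the tyrosine phosphatases 0.04, -0.05, -0.13 and 0.02. Over all tested genes the medians were 0.0008, 0.03, -0.02 and 0.02. Placebo 1 was also the array with the lowest neuron marker sum and the highest sums of choroid plexus and meninges and of oligodendrocyte markers (20388 against 12394 to 16351). Astrocyte (5048 against 4232 to 4870), vascular (576, 562, 831 and 727) and blood marker sums (1124, 2487.5, 3747 and 3325) were highest there too. Without S100b the astrocyte sums were 1575, 1695, 1704 and 1571, so placebo 1 was close to estradiol 2. Both placebo pools exceeded both estradiol pools in the vascular and blood sums. Without Hbb the blood sum was 230 in placebo 1 and 270 in placebo 2. The microglia and leukocyte sum was highest in placebo 1 through Lyz2 (514 against 254 to 286), and without Lyz2 it was 288 in placebo 1 and 299 in placebo 2. The part of these in the low placebo 1 values was not tested.

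The serine/threonine and tyrosine classes were not separated by these arrays. The 27 tested serine/threonine genes had a median log2 fold change of 0.08 (18 above 0), and the 17 tested tyrosine phosphatases one of 0.14 (10 above 0). The difference of these medians was -0.06. It had either sign with an array left out, from -0.21 without estradiol 2 to 0.19 without estradiol 1. Taken pool by pool, the difference between the median deviations of the classes had an SD of 0.07, pooled over the groups. That is a related measure and not the spread of the -0.06 itself. The serine/threonine median deviation was the higher one only in estradiol 2. The tyrosine side had the wider spread, from -0.45 to 1.02 against -0.44 to 0.41. A log2 fold change beyond 0.5 in either direction was found for 2 tyrosine phosphatases (11.8%), Ptpn23 and Ptprz1, and for 0 serine/threonine genes, beside 9.27% of all tested genes. Groups did not overlap for 9 of 27 serine/threonine genes (33.3%) and 9 of 17 tyrosine phosphatases (52.9%), beside 30.1% of all tested genes. No test of the classes was made, since their members were chosen with earlier results known.

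**Figure D4:**
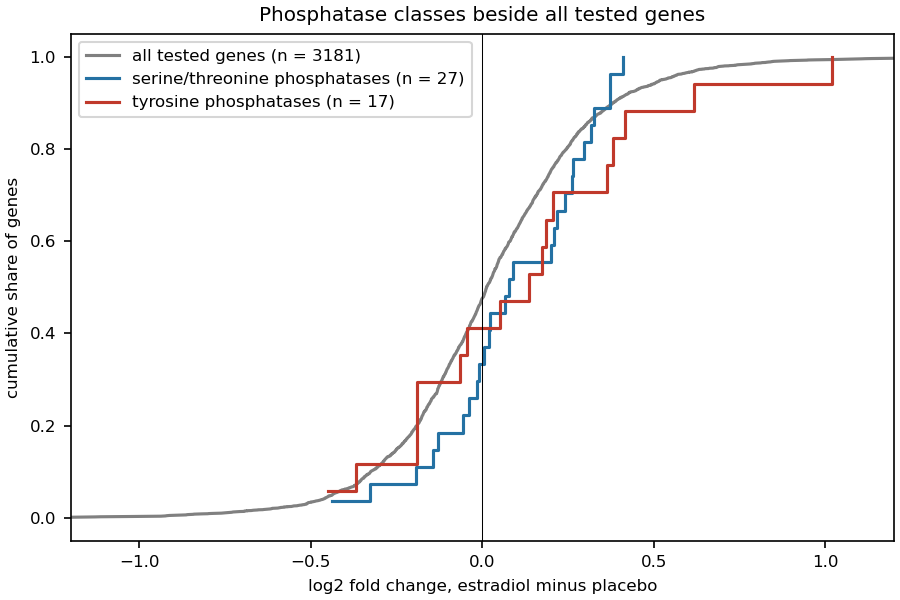
Cumulative share of genes (vertical axis) at or below a given log2 fold change, estradiol minus placebo (horizontal axis), for the 27 serine/threonine genes, the 17 tyrosine phosphatases and 3181 tested genes. The class medians are 0.08 and 0.14 beside 0.01 for all tested genes, and 295 of all tested genes lie beyond 0.5 in either direction, not all of them inside the plotted range.

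Probe sets of 1 gene gave a measure of how far a single value can be read. Of the 59 genes, 24 had several probe sets and 18 had several that were tested. In 11 of these 18 all tested probe sets shared their sign, and in 7 they did not, namely Ppm1a, Ppm1b, Ppp1cb, Ppp1r9b, Ppp2r2b, Ptpn1 and Ptprs. The median gap between the highest and the lowest log2 fold change of a gene was 0.30, and the widest was 0.95, for Ptpn23. With the mean of a gene's tested probe sets in place of the brightest, 0 of the 44 genes lay at an unadjusted p below 0.05 in limma.

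Genes that work with phosphatases did not pass either. The list of inhibitors, anchors and targets had 10 tested genes, 3 above 0 and 7 below, with a median of -0.05. Its lowest were Anp32a, which encodes a PP2A inhibitor, with -0.90 from estradiol 2 alone (16.8 against 115, 99.2 and 113), and Igbp1, a binder of the PP2A catalytic subunit, with -0.36. Its highest were Strn, which encodes the PP2A-binding scaffold striatin, with 0.43 (117 and 104 against 73.5 and 82.6) and Akap11 with 0.04. Partners of receptor tyrosine phosphatases had 7 tested genes, 2 above 0 and 5 below, with a median of -0.10, from Nfasc (neurofascin) with -0.45 and Cntn1 (contactin) with -0.36 to Tnc with 0.05 and Ncam1 with 0.06. Opposing kinases had 11 tested genes, 6 above 0 and 5 below, with a median of 0.0024, from Ptk2 with -0.23 and Lyn with -0.21 to Camk2a with 0.19 and Ptk2b with 0.29. Of the other phosphatases only Cdc25b was tested, with -0.22. None of these genes lay at an unadjusted p below 0.05 in limma.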

How the data were processed

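The authors deposited 1 table of linear intensity per probe set, with 1 column per array. All 4 columns share a mean of 150.0 after trimming 2% at each end, so the authors had brought the arrays to 1 level. A scaling factor is among the quality checks that the design text names, and the sources used here do not name the program.

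Of 8799 rows, 59 controls were left out, which left 8740 probe sets, 7006 of them with a single symbol in the platform annotation. Background was the brightest of 23 controls for bacterial, yeast and mouse transcripts on each array. Intensities were used as log2(value + 16). Probe sets with a mean below the 40th percentile were left out, and 5244 were tested with limma 3.58.1 in R 4.3.3 (lmFit, eBayes with trend, 2 residual and 5.63 prior degrees of freedom, two-sided, Benjamini-Hochberg adjusted). The test was checked on simulated data whose changes were larger than any phosphatase value here, so that check does not bear on differences of this size. The scale understates changes of dim probe sets.

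The genes and lists were chosen with earlier results of these data known. Values on each array are given for catalytic and calcineurin subunits, the 4 highest and 4 lowest log2 fold changes and the 2 brightest genes of each class, genes at an unadjusted p below 0.05, and genes whose probe sets differ in sign by more than 0.5. Other members were named after their values were seen. Nothing in the labels says that same-numbered pools belong together, and the deviations of such pools from their group means correlated at 0.04 across probe sets.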

Additional observations from a re-analysis of the deposited data

How the results depend on the processing

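No phosphatase gene and no probe set passed the adjusted threshold in limma under any of the alternatives run, which were median centring, quantile normalisation, no intensity trend, an offset of 1 or 64, dropping the filter or raising it to the 60th percentile, the replicate block, the mean of a gene's tested probe sets (members only) and each array left out. The number of phosphatase genes at an unadjusted p below 0.05 was 1 with all arrays, 2 with median centring, 3 without the filter, 0 with probe set means, and between 1 and 4 with an array left out. As shares of the phosphatase genes in each fit these were 2.27, 4.55 and 5.08% with all arrays, median centring and no filter, beside 2.58, 2.77 and 3.53% of all genes, and 2.27 to 9.09% with an array left out, beside 2.45 to 4.18%. The genes added to Ptpn23 were Ppp1ca with median centring, Ppp1ca and Ptpn6 without the filter, Ppp3cb, Ptpn5 and Ptprz1 without estradiol 1, Ppp1r15a without placebo 1 and Ppp3ca without placebo 2. With an array left out, the serine/threonine median lay between 0.0037 and 0.27 and the tyrosine median between -0.0636 and 0.235, which was 0.044 without the filter. The difference of the medians was -0.16 with the filter at the 60th percentile, 0.0239 without the filter, 0.0557 with probe set means and between -0.21 and 0.19 with an array left out. The genes without overlap numbered 28 to 35 with an array left out, when 62.1 to 66.6% of all tested genes did not overlap either. Of 318 values of 25 named genes under alternatives, 11 turned in sign, 7 of them with an array left out. Many of the 25 were picked for the highest or lowest log2 fold changes of their class, which by itself makes turns among these values less frequent. Dropping the trend, changing the filter or adding the replicate block leaves these values as they are, so no sign could turn there. Signs held with each array left out in turn for 10 of 27 serine/threonine genes (37.0%) and 11 of 17 tyrosine phosphatases (64.7%). The same share over all tested genes was 43.4%. With the pool number as a replicate block, 1 phosphatase gene (2.27%) lay at an unadjusted p below 0.05 in limma, beside 3.58% of all tested genes. No call changed. The difference of the medians (-0.06) and the 18 genes without overlap could not change under this block, because it is balanced over the groups. Only the p-values could. With an array left out, the lone pool of its group is assumed to vary like the other group. With 2 pools per group, the arrays limit what can be seen, and values near background have little meaning.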

Other observations

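The catalytic alpha subunit of PP2A could not be placed among the genes above, because both probe sets that carry Ppp2ca are annotated to Ppp2cal1 as well. The brighter read 636 and 632 under estradiol against 498 and 639 under placebo, with placebo 1 as the low array. The other stood at 505 and 631 against 432 and 484, without overlap between groups.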
